A study of Mus musculus with 13 samples.

Results

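The comparison set 5 libraries of VDR-null incisors against 5 libraries of control incisors, chosen by the genotype in the labels, which makes 10 of the 13 RNA-seq libraries of the series. The other 3 libraries came from VDRgem mutants. Every library held RNA of lower incisors from males at postnatal day 5, and all 13 share that tissue, sex, age and library protocol. The labels call one group control and the design text calls it WT, and they give no strain, littermate relation or agent. They give the other group as VDR-null, with no description of the allele. Such mice have no functional vitamin D receptor in any tissue, as general background. The series describes the teeth as independent without naming animals, and the p-values below rest on the spread between libraries. Whether any libraries share an animal is not stated, and if some do, these p-values could be too small. The tooth was taken whole, so fewer cells of a type and less RNA per cell cannot be told apart.

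The vitamin D receptor is a nuclear receptor that binds the hormonal form of vitamin D, pairs with a retinoid X receptor and acts on target genes as a transcription factor. It is known above all for calcium and phosphate balance, and it is present in the enamel-forming ameloblasts and the dentin-forming odontoblasts. GC content, the share of G and C bases in a transcript, is a property of the sequence alone. A transcript's GC content can alter how well its fragments are copied and read in RNA-seq, and genes of different function differ in it.

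Total counts ran from 20405188 to 66058759 in the control libraries and from 26145535 to 61762799 in the VDR-null libraries. Levels are in CPM, the count scaled to a common library size after TMM normalization, and a fold change is the fitted log2 ratio of VDR-null to control. The tissue matched its label in every library. The enamel matrix gene Amelx stood at 5525 to 39379 CPM in control and at 6033 to 37092 CPM in VDR-null, and the dentin gene Dspp at 15901 to 21297 CPM and 14519 to 32280 CPM. VDR-null 3 stood apart in skeletal muscle transcripts, with a summed level of 845 CPM over 16 tested muscle genes against 11.1 to 88.3 CPM in the other VDR-null libraries and 16.4 to 46.6 CPM in control.

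Vdr itself was counted in every library. Vdr (ENSMUSG00000022479), a minus-strand gene of chromosome 15 that spans 97854425 to 97910630 in mm10, stood at 176, 166, 154, 180 and 142 CPM in control 1 to 5 and at 213, 253, 260, 204 and 281 CPM in VDR-null 1 to 5. Every VDR-null library lay above every control. The log2 fold change was 0.56 (SE 0.15) with an adjusted p of 0.0618 in edgeR's quasi-likelihood test. By an exact permutation test of log2 CPM, two-sided over the 5 and 5 libraries, p was 0.00794, the smallest that this design allows. The edgeR adjusted p was 0.0284 with the 10 libraries fitted alone and 0.0254 without VDRgem 1. Without any other single library it missed the threshold of 0.05, at 0.0524 to 0.142. With an offset for GC content, described below, it was 0.0947. Counts summed over a gene hold no information on single exons, so these levels do not check the genotype labels.

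How many genes were called depended on the fit and the tool, and the genes with the largest rises that met the naming rule were mostly copies of housekeeping genes. edgeR called 238 of 17837 genes tested (1.33%) at a Benjamini-Hochberg adjusted p under 0.05. VDR-null was higher for 121 of them (0.678%) and lower for 117 (0.656%). Among 15144 protein-coding genes 203 were called (1.34%). DESeq2 called 1657 genes (9.29% of all genes tested), and it gave no adjusted p for 2442 of those tested. An unadjusted edgeR p under 0.05 was found for 4068 genes (22.8%). The median absolute log2 fold change was 0.405 among the rises and 0.628 among the falls, against 0.175 over all genes tested. In 1265 genes (7.09%) the libraries of the groups did not overlap in CPM. In 697 of these (3.91%) every VDR-null library was higher, and in 568 (3.18%) every one was lower. The selection stated with the series, read as an unadjusted p under 0.05 with an absolute log2 fold change over 0.3, took 2349 genes (13.2%). Scaling changed the balance of the calls. Upper-quartile factors gave 147 higher and 301 lower, and library totals alone gave 91 higher and 256 lower.

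Which libraries entered the fit changed the number of calls. The count was 7, 6, 8, 9 and 217 without control 1 to 5, and 31, 10, 498, 450 and 155 without VDR-null 1 to 5. The VDRgem libraries enter only through the shared spread, scaling and gene filter, and leaving out VDRgem 1, 2 or 3 gave 680, 42 or 685 calls. The 10 libraries fitted alone gave 703 calls (4.16% of 16880 genes tested), 308 higher and 395 lower. Called in all 13 fits that left out 1 library were 6 genes: the gene copies Gm6682, Rpl10-ps3, Gm10086 and Rpl31-ps8, the zinc transporter gene Slc30a5 and the gene Cox16, whose product serves assembly of cytochrome c oxidase. Slc30a5 was named after its values were seen. Of 53 called genes named by the rule, 48 were not called without any 1 of control 1 to 4, 47 without VDR-null 2, 41 without VDR-null 1, 36 without VDRgem 2, 21 without VDR-null 5 and 11 without control 5.

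Slc30a5 moves zinc into the secretory pathway. It stood at 58.8, 59.2, 59.1, 56.7 and 59.1 CPM in control and at 80.5, 80.9, 79.3, 79.9 and 75.4 CPM in VDR-null, so the groups lay far apart, and it rose by 0.44 on the log2 scale (SE 0.06, edgeR adjusted p = 0.00697). Its exons have 43.5 percent GC, and the rise was 0.32 with the GC offset described below (edgeR adjusted p = 0.0343).

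By a slope on GC content, VDR-null libraries held on average relatively more of the GC-poor transcripts and less of the GC-rich ones. For each library, the deviation of each gene's log2 CPM from its mean over the 10 libraries was fitted against the GC content of the gene's merged exons, which gives 1 slope per library. The slope, in log2 CPM per 10 GC percentage points, was 0.209, 0.124, 0.112, 0.162 and 0.00793 in control 1 to 5. In VDR-null 1 to 5 it was -0.297, -0.183, 0.0857, -0.0198 and -0.201. All controls had positive slopes and 4 of 5 VDR-null libraries had negative ones, and VDR-null 3 lay within the control range. The means were 0.123 ± 0.0746 in control and -0.123 ± 0.153 in VDR-null (SD, n = 5 each), a difference of -0.246 with a two-sided exact permutation p of 0.0159 and p = 0.0238 adjusted over 3 library measures. Without control 1 the difference was -0.225 and the adjusted exact permutation p was 0.0595. On the same scale the VDRgem libraries had slopes of 0.369, 0.232 and 0.00913.

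**Figure D1:**
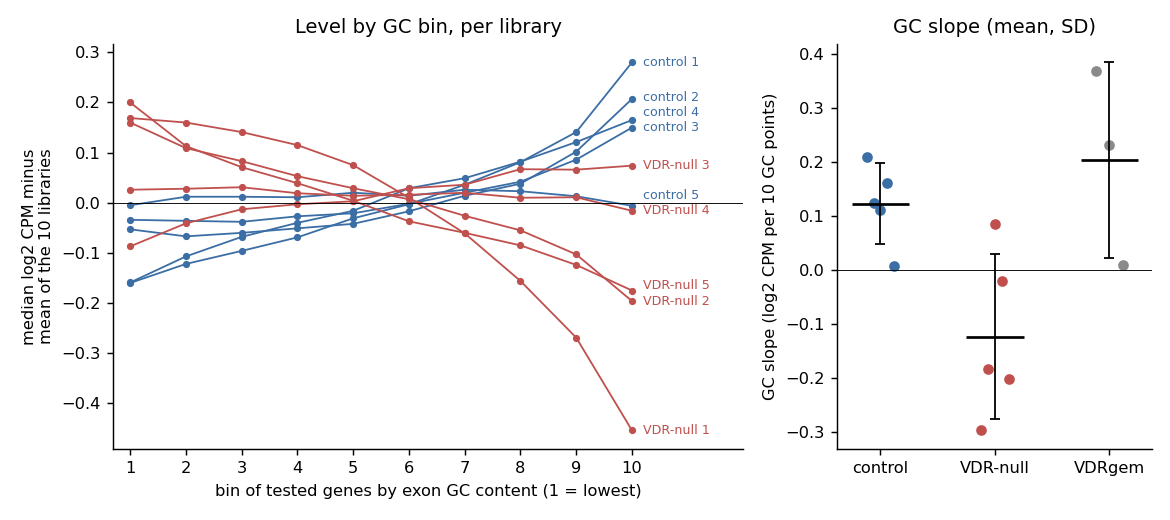
Left, the median over each of 10 equal bins of tested genes, ordered by exon GC content, of log2 CPM minus the mean of the 10 libraries, with 1 line per library (control blue, VDR-null red). Right, the GC slope of each library in log2 CPM per 10 GC points, with the group mean and SD as bars, VDRgem in grey. In the bin of highest GC content, control 1 to 4 stood between 0.150 and 0.280 and VDR-null 1 at -0.454, while VDR-null 3 stood at 0.074 and control 5 at -0.006.

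The share of counts in GC-rich genes overlapped between the groups. Genes in the highest of 5 equal bins by GC content took 22.9 to 29 percent of counts in control and 18 to 27.3 percent in VDR-null, with the lowest share in VDR-null 1. The order of the libraries was not that of the slopes throughout, as VDR-null 5 had a share of 23 percent, above control 5 and VDR-null 4. The mean GC content weighted by counts was 50.3 ± 0.304 percent in control and 49.7 ± 0.451 percent in VDR-null (SD, n = 5 each), a difference of -0.555 points. Its two-sided exact permutation p was 0.0556, also 0.0556 after adjustment, so this measure missed the threshold. Without VDR-null 3 the difference was -0.718 (adjusted exact permutation p = 0.0159), and without control 5 it was -0.653 (adjusted exact permutation p = 0.0397). Without each of the other 8 libraries it missed the threshold, with adjusted exact permutation p of 0.0635 to 0.111 and the smallest difference, -0.408, without VDR-null 1.

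Transcript length moved as well. The slope on log2 exon length was -0.0294 ± 0.0263 in control and 0.0294 ± 0.0259 in VDR-null (SD, n = 5 each), and the difference of 0.0587 had an exact permutation p of 0.0159 and an adjusted p of 0.0238. With GC content and length in 1 regression the length difference was 0.0271 (adjusted exact permutation p = 0.111) and the GC difference was -0.233 (adjusted exact permutation p = 0.0476). The length difference was 0.0322 over coding parts (adjusted exact permutation p = 0.175) and 0.0607 among genes at a mean of at least 1 CPM (adjusted exact permutation p = 0.0635), so both missed the threshold. Without control 1 the length difference was 0.058 with an adjusted exact permutation p of 0.0595. GC content and length are related across genes, as the median exon length fell from 5425 bases in the lowest of 10 equal bins by GC content to 2770 bases in the highest.

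On the scale of fold changes the trend ran through the whole range of GC content. The median log2 fold change was 0.187 in the lowest bin (27.5 to 41.3 percent GC) and -0.304 in the highest (57.3 to 75.5 percent GC), against 0.01 over all genes tested. Of the genes in the lowest bin 82.7 percent had a positive fold change, and of those in the highest bin 10.5 percent did. The called genes followed: the lowest bin held 31 rises and 1 fall, and the highest bin held 1 rise and 61 falls. The median exon GC content was 44 percent among the rises, 57.7 percent among the falls and 49.4 percent among all genes tested. These gene-level values restate, gene by gene, the same 10 libraries and are given as a description.

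**Figure D2:**
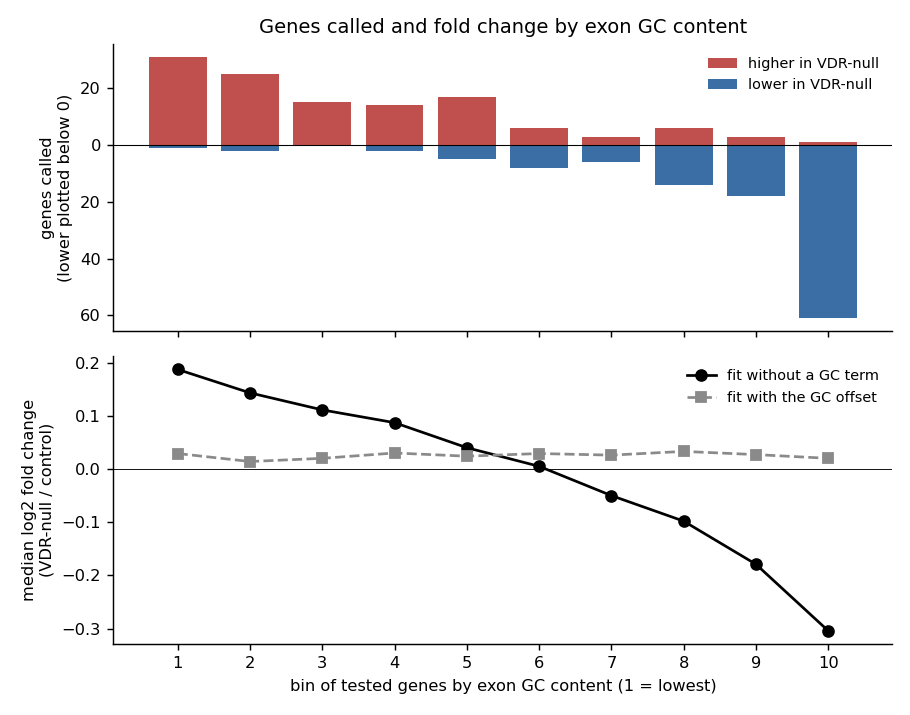
Top, the number of genes called in edgeR at an adjusted p under 0.05 in each of 10 equal bins by exon GC content, with rises in VDR-null above 0 and falls below. Bottom, the median log2 fold change of VDR-null against control in each bin, without a GC term (black circles) and with a GC offset per library (grey squares). The black line falls from 0.187 to -0.304, and the grey line stays between 0.014 and 0.033.

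Coding stretches of a pair of GC-poor genes that rose and a GC-rich gene that fell show the contrast in composition. Each is the stretch of 90 coding bases whose GC content is closest to that of the gene's whole coding part, written 5′ to 3′ from the GENCODE M21 transcript on GRCm38, with G and C in capitals. Dcn and Itfg1 held 47.8 and 45.6 percent GC in these stretches, and H1fx held 68.9 percent. The exons of Dcn and Itfg1 had lower GC content than their coding parts, at 37.8 and 38.2 percent.
Dcn: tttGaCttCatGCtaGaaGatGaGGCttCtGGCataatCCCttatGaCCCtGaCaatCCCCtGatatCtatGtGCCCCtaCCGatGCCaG
Itfg1: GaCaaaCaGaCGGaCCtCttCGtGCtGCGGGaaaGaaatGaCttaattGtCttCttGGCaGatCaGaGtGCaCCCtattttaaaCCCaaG
H1fx: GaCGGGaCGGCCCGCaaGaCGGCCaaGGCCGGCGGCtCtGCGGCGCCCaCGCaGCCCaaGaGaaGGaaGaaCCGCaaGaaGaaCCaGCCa

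Among protein-coding genes, the GC-poorest rises that met the naming rule were Dcn, Sema3d, Itfg1 and Cstf3. Dcn, on chromosome 10 from 97479609 to 97518143, encodes decorin, a small proteoglycan that binds collagen fibrils. It stood at 767, 704, 704, 785 and 706 CPM in control and at 887, 1096, 1235, 873 and 982 CPM in VDR-null, so the groups did not overlap, and rose by 0.47 (SE 0.10, edgeR adjusted p = 0.0402). Sema3d, a secreted semaphorin that guides axons and migrating cells, stood at 115 to 134 CPM in control and 139 to 235 CPM in VDR-null, highest in VDR-null 3, and rose by 0.55 (SE 0.11, edgeR adjusted p = 0.038). The Itfg1 level was 84.5 ± 5.8 CPM in control and 109 ± 8.97 CPM in VDR-null (SD, n = 5 each). Cstf3, a subunit of a factor that stimulates the cleavage of RNA before its poly-A tail is added, stood at 23.8 to 26.8 CPM in control and 29.3 to 31.4 CPM in VDR-null. With the GC offset described below none of these 4 genes passed, with log2 fold changes of 0.13 to 0.41 and edgeR adjusted p of 0.203 to 0.464.

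The GC-richest falls were H1fx, C1qtnf4, Prr7 and Gm13889. H1fx, a linker histone, stood at 27.1, 19.8, 17.8, 22.5 and 14.4 CPM in control and at 6.95, 6.16, 10.5, 12.3 and 10.1 CPM in VDR-null. The groups did not overlap, and H1fx fell by 1.15 (SE 0.22, edgeR adjusted p = 0.034). Prr7, a small membrane protein of synapses and lymphocytes, stood at 5.13, 4.07, 3.66, 2.42 and 1.61 CPM in control and at 0.501, 0.538, 1.37, 1.22 and 1.15 CPM in VDR-null. The highest VDR-null library for Prr7 lay just below the lowest control, and Prr7 fell by 1.84 (SE 0.35, edgeR adjusted p = 0.0346), the most among genes that met the naming rule. C1qtnf4, a secreted protein of the C1q and TNF family, fell by 1.77 (SE 0.37, edgeR adjusted p = 0.0406), from 1.69 ± 0.593 CPM to 0.507 ± 0.25 CPM (SD, n = 5 each). Under the GC offset the log2 fold changes of H1fx, Prr7 and C1qtnf4 were -0.26, -1.04 and -0.90, with edgeR adjusted p of 0.389, 0.0725 and 0.109.

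A few genes went against the trend. Cox16, with 37 percent GC, stood at 2.94, 2.98, 2.45, 2.09 and 1.58 CPM in control and at 0.645, 0.573, 0.929, 0.796 and 0.865 CPM in VDR-null. Its groups did not overlap, and it fell by 1.66 (SE 0.22, edgeR adjusted p = 0.00697), and by 1.83 with the GC offset (edgeR adjusted p = 0.0143). Mpc1, a subunit of the mitochondrial pyruvate carrier with 47.7 percent GC, fell by 1.18 (SE 0.23, edgeR adjusted p = 0.0381), from 2.36 to 3.97 CPM in control to 0.688 to 1.75 CPM in VDR-null. Gng5, a G protein gamma subunit with 43 percent GC, fell by 0.80 (SE 0.18, edgeR adjusted p = 0.0458). Mpc1 lies near the middle of the GC range, in a bin with a median log2 fold change of 0.04. Mpc1 and Gng5 have 2 and 5 near-identical copies, the closest of each a processed pseudogene, so their counts are uncertain. With the GC offset their log2 fold changes were -1.21 and -0.91 (edgeR adjusted p = 0.0564 and 0.0757), no smaller than without it. Kctd21 and Blcap were among the GC-richest protein-coding rises, at 51.3 and 51.8 percent GC. Blcap rose by 0.34 (SE 0.07, edgeR adjusted p = 0.0385), from 31.3 to 37 CPM in control to 39.3 to 46.7 CPM in VDR-null, and kept a log2 fold change of 0.40 with the GC offset (edgeR adjusted p = 0.0446).

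**Figure D3:**
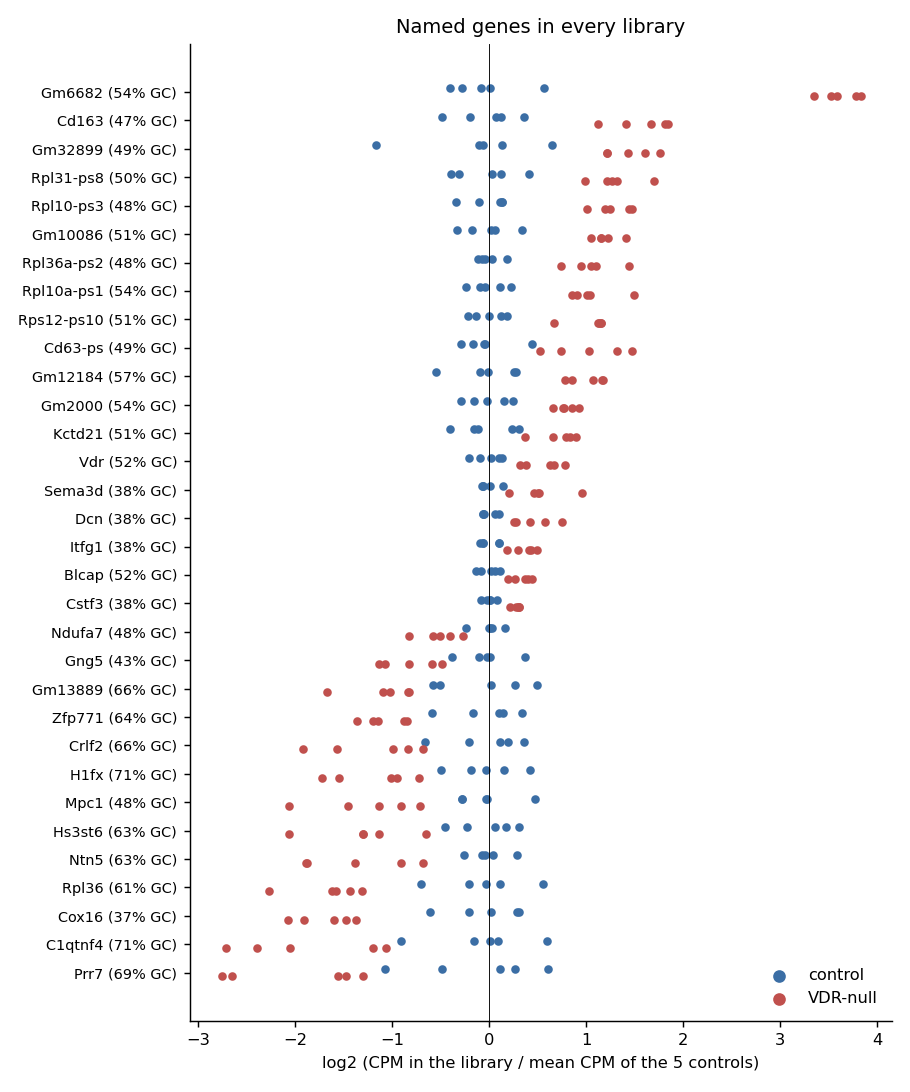
Each point is 1 library, as log2 of its CPM over the mean CPM of the 5 controls (control blue, VDR-null red), for Vdr, the 10 largest rises, the 10 largest falls and the called protein-coding genes of lowest and highest GC content in each direction. Exon GC content stands beside each name. Gm6682 lies farthest to the right, and Prr7 and C1qtnf4 lie farthest to the left.

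The trend was similar whichever genes were taken. The gap in median log2 fold change between the highest and the lowest of 5 equal bins by GC content was -0.406 over all genes tested, -0.411 over protein-coding genes and -0.406 over genes without a near-identical copy. It was -0.468, -0.406 and -0.373 in the low, middle and high class of 3 equal classes by mean level, and -0.414, -0.368 and -0.353 in the same order of 3 classes by exon length. For 11740 genes with all parts annotated, the gap was -0.412 by GC content of the exons, -0.401 by that of the coding part, -0.300 by the last bases of codons and -0.308 by the 3′ untranslated part. By the GC content of the RefSeq promoter window on GRCm38, from 250 bases before to 50 bases after the gene start, the gap was -0.026. These parts overlap and share base composition, so the gaps are a description. Whether the gap arose in the tissue or in the making and reading of the libraries was not tested.

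With an offset for a smooth GC trend fitted in each library, edgeR called 51 genes (0.286%), 39 higher and 12 lower. Of these, 36 were also called without the offset, 24 higher and 12 lower. A near-identical copy elsewhere in the annotated transcripts exists for 24 of the 51, against 8.96 percent of genes tested. The offset also takes up any difference between the genotypes that follows GC content. Among the 15 genes called with the offset alone were Cd63, Igfbp7 and Anpep, named after their values were seen. Cd63, a tetraspanin of late endosomes and exosomes with 58.1 percent GC, stood at 159 ± 13.3 CPM in control and 190 ± 33.8 CPM in VDR-null (SD, n = 5 each). Its log2 fold change was 0.26 (edgeR adjusted p = 0.169) without the offset and 0.54 (edgeR adjusted p = 0.0297) with it. Anpep, an aminopeptidase of the cell surface, moved from 0.30 (edgeR adjusted p = 0.067) to 0.41 (edgeR adjusted p = 0.0176). Lipa, the acid lipase of lysosomes, was called both ways. It stood at 37.5, 36.8, 37.9, 39.9 and 39.9 CPM in control and at 53.7, 53.7, 51.5, 49.7 and 50.2 CPM in VDR-null, with narrow groups that lay far apart, and rose by 0.43 (SE 0.07, edgeR adjusted p = 0.018), or 0.31 with the offset (edgeR adjusted p = 0.0425).

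Processed pseudogenes are copies of a messenger RNA that were pasted back into the genome, and their transcripts can differ from those of the source gene at few bases. Of the 10 largest rises that met the naming rule, Cd163 was the only gene that is not such a copy or a ribosomal protein retrogene. Of all called genes, 49 (20.6%) had a near-identical copy (at least 95 percent identity over at least 100 bases), against 8.96 percent of genes tested. Among 631 pseudogenes tested, 20 rose (3.17%) and 10 fell (1.58%), against 0.678% and 0.656% of all genes tested. Counts of such genes are uncertain, because reads can be shared or set aside between a copy and its source.

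Gm6682 had the largest called rise that met the naming rule. It is a processed pseudogene on chromosome 12, from 4782170 to 4783515, whose closest match is the tubulin gene Tuba1c on chromosome 15, from 99029891 to 99038110. Gm6682 stood at 0.194, 0.379, 0.257, 0.211 and 0.241 CPM in control and at 3.51, 2.6, 2.95, 3.63 and 3.08 CPM in VDR-null. The groups lay far apart, and the rise was 3.65 on the log2 scale (SE 0.23, edgeR adjusted p = 3.9e-06). Tuba1c, which encodes an alpha-tubulin of microtubules, stood at 22.3, 25, 29.5, 29.3 and 27.3 CPM in control and at 17.8, 16.3, 18.3, 19 and 17.4 CPM in VDR-null. It fell by 0.59 (SE 0.10, edgeR adjusted p = 0.0223), so that Gm6682 and its closest match moved in opposite directions, each with groups that did not overlap. Tuba1c is 1 of 9 near-identical matches of Gm6682, and which of them is its source was not tested. With the GC offset the Tuba1c fold change was -0.42 with an edgeR adjusted p of 0.0566.

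Gm47021, a processed pseudogene on chromosome 13 named after its values were seen, split the VDR-null group. It stood at 0.0323, 0, 0.0756, 0.126 and 0.0482 CPM in control and at 3.34, 3.42, 3.68 and 3.55 CPM in VDR-null 1 to 4, while VDR-null 5 stood at 0.0763 CPM, within the control range. The 0 in control 2 allows up to 0.142 CPM, and the fitted rise was 5.40 (SE 0.78, edgeR adjusted p = 0.016). Its closest match is Dazap2, on chromosome 15 from 100615349 to 100620761, a small proline-rich protein gene. The Dazap2 level was 132 ± 14.7 CPM in control and 120 ± 4.64 CPM in VDR-null (SD, n = 5 each), with a log2 fold change of -0.13 (SE 0.09, edgeR adjusted p = 0.368). The aligned coding bases numbered 457, of which 12 differed, and the stretch at coding bases 249 to 328 of Dazap2 holds 6 of them. That stretch of 80 bases was chosen for holding the most differences, so it differs more than the aligned bases as a whole. Both its sequences are printed to show which bases tell Gm47021 from Dazap2. They run 5′ to 3′ from the GENCODE M21 transcripts on GRCm38, with the differing bases in capitals. Positions are counted from 1 at the start codon.
Dazap2: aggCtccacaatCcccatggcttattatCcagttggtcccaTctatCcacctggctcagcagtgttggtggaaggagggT
Gm47021: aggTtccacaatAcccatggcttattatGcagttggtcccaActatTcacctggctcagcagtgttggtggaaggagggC

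**Figure D4:**
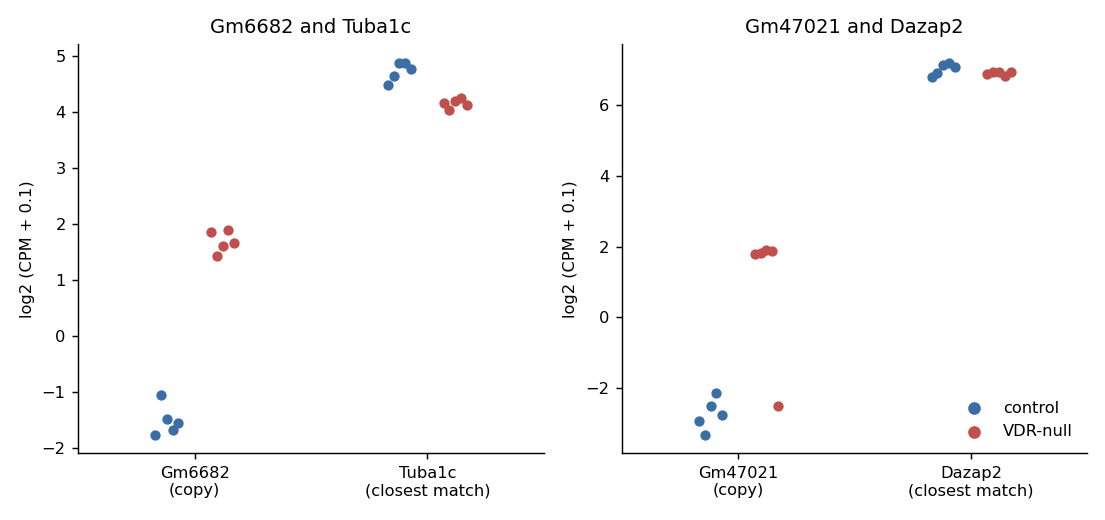
Each point is 1 library (control blue, VDR-null red), as log2 of CPM plus 0.1, for Gm6682 beside Tuba1c and for Gm47021 beside Dazap2. Gm6682 is higher in all 5 VDR-null libraries and Tuba1c lower, and for Gm47021 the point of VDR-null 5 lies among the controls.

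Copies of ribosomal protein genes made up most of the other large rises. Rpl31-ps8, on chromosome 15 from 90764279 to 90764656, stood at 10, 7.39, 9.36, 6.98 and 12.2 CPM in control and at 29.9, 22, 18.2, 21.3 and 22.9 CPM in VDR-null. Its groups did not overlap and it rose by 1.31 (SE 0.17, edgeR adjusted p = 0.00697). Its 378 aligned bases were identical to Rpl31 on chromosome 1, which stood at 10.6 ± 1.29 CPM in control and 11 ± 2.69 CPM in VDR-null (SD, n = 5 each), with a log2 fold change of 0.06. Rpl10-ps3 rose by 1.28, Gm10086 by 1.21, Rpl36a-ps2 by 1.08, Rpl10a-ps1 by 1.08 and Rps12-ps10 by 1.06. In each of these 5 copies every VDR-null library lay above every control. The genes Rpl10, Rpl36a and Rpl10a had log2 fold changes of 0.02, -0.00 and -0.32, with edgeR adjusted p of 0.958, 0.989 and 0.128. Gm32899 rose by 1.44 and Cd63-ps by 1.05.

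On chromosome 15, within 10 Mb of Vdr on either side, 216 genes were tested and 5 were called (2.31%, against 1.33% of all genes tested), 1 higher and 4 lower. The riser was Rpl31-ps8, and the others were Rpap3, Cacnb3, Tuba1c and Grasp, named after their values were seen. Rpap3, a cofactor in the assembly of RNA polymerases, begins at 97675097 and ends at 97705825. It stood at 21.2, 19.5, 22.4, 21.4 and 21.8 CPM in control and at 14.5, 12.3, 11.6, 13.6 and 15.1 CPM in VDR-null, with groups that lay well apart, and fell by 0.67 (SE 0.10, edgeR adjusted p = 0.018). With the GC offset Rpap3 fell by 0.68 (edgeR adjusted p = 0.0162). Cacnb3 and Grasp moved from -0.50 and -0.62 to -0.12 and -0.18 with the offset (edgeR adjusted p = 0.495 and 0.663). Of the 49 called genes with a near-identical copy, 3 (6.12%) have their closest match in that same window, Gm6682, Gm47021 and Rps27rt. Among the 1597 tested genes with such a copy 27 do (1.69%). Gm6682 and Gm47021 were singled out above for their rises, so these shares are a description. Gm6682, Gm47021 and Rps27rt have 9, 1 and 5 near-identical matches, of which only the closest was counted. The labels do not give the strain behind either group, so genotype and any difference in strain near Vdr cannot be told apart.

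No vitamin D target gene passed edgeR's test. Of 20 targets tested 0 were called in edgeR, where 1.33% of all genes tested were called, so this count lies near the background. An unadjusted p under 0.05 was found for 6 targets, against 22.8% of all genes tested. DESeq2 called 2, against 9.29% of all genes tested, and limma-voom called 0. The list had a median log2 fold change of -0.21, or -0.05 after subtracting the median of all tested genes in the same GC quintile, against 0.01 over all genes. The 24-hydroxylase Cyp24a1, which degrades the hormone, stood at 0.404 ± 0.0904 CPM in control and 0.306 ± 0.133 CPM in VDR-null (SD, n = 5 each), with a log2 fold change of -0.47 (SE 0.32, edgeR adjusted p = 0.388). The calcium channel Trpv6 had a log2 fold change of -0.25 (SE 0.34, edgeR adjusted p = 0.705). Calb1, the calcium-binding calbindin, stood at 356 to 791 CPM in control and 258 to 826 CPM in VDR-null, overlapping throughout.

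Bglap3, a member of the osteocalcin cluster, differed widely among the VDR-null libraries. It stood at 0.953 to 1.9 CPM in control and at 134, 201, 2.5, 1.11 and 1.12 CPM in VDR-null 1 to 5, so only VDR-null 1 and 2 were far above control (edgeR adjusted p = 0.0535). Its neighbours Bglap and Bglap2 overlapped between the groups, with log2 fold changes of -0.32 and -0.26 (edgeR adjusted p = 0.361 and 0.453). The osteocalcin genes are close relatives, so their counts may share reads. Of 16 genes of vitamin D metabolism and receptor partners edgeR called 0, near the background of 1.33% of all genes tested. An unadjusted p under 0.05 was found for 3 of them, and DESeq2 and limma-voom each called 1.

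Lists of genes that define the tooth held at most 1 edgeR call each. As 1.33% of all genes tested were called, a count of 0 or 1 in lists this short lies near the background and is not a result about them. Secretory ameloblast genes had 0 of 17 called in edgeR and a median log2 fold change of -0.11, with 0 at an unadjusted p under 0.05 and 0 called in DESeq2 and limma-voom. Maturation ameloblast genes had 0 of 21 called in edgeR and a median of 0.01, with 3 at an unadjusted p under 0.05, 1 called in DESeq2 and 0 in limma-voom. The enamel protease Mmp20 stood at 616 ± 43.3 CPM in control and 767 ± 195 CPM in VDR-null (SD, n = 5 each; edgeR adjusted p = 0.231). Odontoblast and dentin genes had 1 of 22 called and a median of 0.03. That gene, the phosphatase Phospho1 of matrix vesicles, fell by 1.48 (SE 0.34, edgeR adjusted p = 0.049), from 0.379 to 0.78 CPM in control to 0.115 to 0.404 CPM in VDR-null, and its highest VDR-null library lay within the control range. DESeq2 gave Phospho1 no adjusted p and called 1 gene of this list, Ibsp, as a rise, and with the GC offset Phospho1 stood at -1.09 (edgeR adjusted p = 0.0959). In the papilla list 1 of 19 fell, the homeobox gene Dlx5, at 55.6 to 73.7 CPM in control and 30 to 52.8 CPM in VDR-null (-0.63, SE 0.13, edgeR adjusted p = 0.042). In the follicle list 1 of 15 fell, Nfic, a transcription factor needed for root formation, at 225 to 280 CPM in control and 154 to 208 CPM in VDR-null (-0.46, SE 0.09, edgeR adjusted p = 0.0346). Dlx5 and Nfic had 55.2 and 58.4 percent GC, and with the GC offset they stood at -0.46 and -0.17 (edgeR adjusted p = 0.0907 and 0.421).

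Matrix and bone genes were also mostly below the threshold, and counts of 0 or 1 in these lists again lie near the background of 1.33%. Among collagens 1 of 44 fell, Col26a1, which stood at 137, 131, 135, 128 and 129 CPM in control and at 86.6, 74.3, 76.5, 99.1 and 99.1 CPM in VDR-null. The groups lay well apart, and it fell by 0.60 (SE 0.09, edgeR adjusted p = 0.018). With the GC offset Col26a1 stood at -0.42 (edgeR adjusted p = 0.119). Of 15 osteoblast and osteocyte genes edgeR called 0 and DESeq2 1, with 2 at an unadjusted p under 0.05, and bone sialoprotein Ibsp stood at 511 ± 106 CPM in control and 828 ± 254 CPM in VDR-null (SD, n = 5 each; log2 fold change 0.70, edgeR adjusted p = 0.0637). Of 15 osteoclast genes edgeR and DESeq2 called 0, with 1 at an unadjusted p under 0.05. Cartilage genes had 0 of 14 called in edgeR, 2 in DESeq2, 4 at an unadjusted p under 0.05 and a median of -0.38, led by Col2a1 at 48.9 ± 22.9 CPM and 18.6 ± 7.86 CPM (SD, n = 5 each; edgeR adjusted p = 0.0861).

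Macrophage genes held 2 calls of 15 (13.3%, against 1.33% of all genes tested), both rises. Of the 15 fold changes 14 were positive, with a median of 0.27, or 0.38 with the GC offset. In 5 of the 15 every VDR-null library exceeded every control, against 3.91% of all genes tested. Cd163, a scavenger receptor for haemoglobin on tissue macrophages, stood at 1.68, 1.14, 0.938, 1.43 and 1.38 CPM in control and at 2.86, 4.69, 4.61, 3.49 and 4.15 CPM in VDR-null. Every VDR-null library exceeded every control, and Cd163 rose by 1.59 (SE 0.27, edgeR adjusted p = 0.0231; 0.0418 with the GC offset). Adgre1, which encodes the F4/80 antigen, stood at 14.7, 12.7, 14, 15.6 and 15.6 CPM in control and at 23.3, 28.7, 27.1, 24.2 and 19.9 CPM in VDR-null, and rose by 0.76 (SE 0.15, edgeR adjusted p = 0.0373). Adgre1 stood at 0.72 with the GC offset (edgeR adjusted p = 0.0623). The mannose receptor Mrc1 also had groups that did not overlap, at 34 to 42.7 CPM and 46.8 to 64.7 CPM (log2 fold change 0.52, edgeR adjusted p = 0.0628). The receptor Csf1r and the complement gene C1qa overlapped between the groups, with values of 0.25 and -0.03. The summed level of the 15 genes was 371 to 446 CPM in control and 440 to 588 CPM in VDR-null. Neither rise was called without control 1, 2, 3 or 4 or without VDR-null 2, while 1 was called without VDR-null 1 or VDRgem 2, and 5 members were called without VDRgem 1 or 3.

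Other blood and nerve cell markers were uneven between libraries. Of 8 neutrophil genes tested all had negative fold changes, with a median of -1.59, and 1 fell, the granule protease Prtn3, from 0.759 to 1.14 CPM in control to 0.269 to 0.485 CPM in VDR-null (-1.15, SE 0.24, edgeR adjusted p = 0.0411). DESeq2 called 7 of the 8, as falls, and 7 had an unadjusted edgeR p under 0.05, against 9.29% and 22.8% of all genes tested. Over all genes tested edgeR called 1.33%, so an edgeR count of 0 or 1 in the short lists of this paragraph lies near the background. Prtn3 stood at -0.75 with the GC offset (edgeR adjusted p = 0.149). The summed neutrophil level was 4.1, 14.3, 16.7, 28.1 and 6.73 CPM in control and 2.19 to 7.67 CPM in VDR-null, so the ranges overlapped. Schwann cell and nerve genes had 0 of 14 called in edgeR and in DESeq2, 4 at an unadjusted p under 0.05, a median of 0.51 and summed levels of 761, 1240, 2172, 411 and 3094 CPM in VDR-null 1 to 5 against 638 to 864 CPM in control. Skeletal muscle genes had 0 of 16 called in edgeR, 5 in DESeq2 and 14 at an unadjusted p under 0.05, and oral keratinocyte genes 0 of 18, 4 and 4. For these lists of bone, cartilage, nerve, muscle and keratinocyte genes limma-voom called 0. The part of these cells in the results above was not tested. In the adipocyte list 1 of 4 rose, the fatty acid transporter Cd36, at 3.39 to 5.29 CPM in control and 5.92 to 9.92 CPM in VDR-null (0.81, SE 0.16, edgeR adjusted p = 0.0388), and at 0.64 on the log2 scale with the GC offset (edgeR adjusted p = 0.0746).

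Most cytosolic ribosomal protein genes had negative fold changes. Of 84 tested 5 fell and 0 rose (5.95%), against 0.656% lower and 0.678% higher over all genes tested. Of the 84, 74 had negative fold changes, and the median was -0.27, or -0.22 after subtracting the median of the GC quintile. Their summed level was 8198 to 8986 CPM in control and 6329 to 7561 CPM in VDR-null, which did not overlap. Rpl36 stood at 2.71, 3.69, 2.45, 2.17 and 1.54 CPM in control and at 0.816, 0.52, 0.929, 1.01 and 0.84 CPM in VDR-null, and fell by 1.60 (SE 0.25, edgeR adjusted p = 0.018). Rps2 fell by 0.56, Rplp2 by 0.92 and Rps7 by 1.03. Rps4l, which is itself annotated as a transcribed processed pseudogene, fell by 0.85, so a copy was among the falls while other copies were among the largest rises. Of the 84 genes, 71 have a near-identical copy, so their counts are uncertain. With the GC offset Rpl36 and Rps7 were called, while Rps2, Rplp2 and Rps4l stood at -0.36, -0.91 and -0.53 (edgeR adjusted p = 0.0557, 0.0549 and 0.0725). Without control 1, 2, 3 or 4 or VDR-null 2 none was called. The number called was 1 without VDR-null 1 or VDRgem 2, 3 without VDR-null 5, 9 without VDR-null 3, 15 without VDRgem 1 and 24 without VDRgem 3.

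A few nuclear-encoded genes of mitochondria fell. Of 83 respiratory chain genes 6 fell and 0 rose (7.23%), against 0.656% lower and 0.678% higher over all genes tested. Of the 83, 68 had negative fold changes, and the median was -0.15. Their summed level was 6137 to 6620 CPM in control and 5212 to 6270 CPM in VDR-null, which overlapped. Atp5e, a subunit of the ATP synthase, stood at 105, 109, 95.8, 96.7 and 81.2 CPM in control and at 66.4, 67.9, 77.7, 70.8 and 62.3 CPM in VDR-null, and fell by 0.50 (SE 0.10, edgeR adjusted p = 0.0346; 0.0484 with the GC offset). Uqcr10 and Uqcr11, small subunits of complex III, fell by 0.65 and 0.77, and Ndufb6 and Ndufa7, of complex I, by 0.45 and 0.51. Cox6b2 was the other. Of 77 mitochondrial ribosomal protein genes 3 fell (3.9%), namely Mrpl2, Mrpl54 and Mrps11, by 0.52, 0.61 and 0.37. These 77 genes had a median of -0.10 and 24 positive fold changes. Their summed level was 1656 to 1820 CPM in control and 1493 to 1724 CPM in VDR-null, also overlapping. The 7 genes encoded in the mitochondrial genome, with a median GC content of 37.1 percent, all had positive fold changes, with a median of 0.29, and 0 were called in edgeR, 1 in DESeq2 and 0 in limma-voom, with 3 at an unadjusted p under 0.05. Of the calls in these 3 lists only that of Atp5e was made with the GC offset, under which the falls of complex I genes were about as large. Ndufb6, Ndufa7, Uqcr10 and Uqcr11 then stood at -0.47, -0.53, -0.56 and -0.46 (edgeR adjusted p = 0.0642, 0.0736, 0.0522 and 0.068), and Cox6b2 at -0.20 (edgeR adjusted p = 0.474). Mrpl2, Mrpl54 and Mrps11 stood at -0.33, -0.29 and -0.29 (edgeR adjusted p = 0.0642, 0.0746 and 0.0746). Without any single control of 1 to 4, VDR-null 1 or 2, or VDRgem 2, no respiratory chain gene was called. In that list 19 falls were called without VDR-null 3, 13 without VDRgem 1 or 3, 10 without VDR-null 4 and 1 without VDR-null 5. Mitochondrial ribosomal calls numbered 0 without control 1, 2, 3 or 4, VDR-null 1, 2 or 5, or VDRgem 2, 9 without VDR-null 3 and 8 without VDRgem 1 or 3.

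In the large Zfp and Tmem families the named members that fell were GC-rich. Of 357 Zfp zinc finger genes, with a median GC content of 44.7 percent, 1 rose and 7 fell (2.24%, against 1.33% of all genes tested). The median log2 fold change was 0.09. DESeq2 called 12 rises and 25 falls in this family, the 10 libraries fitted alone gave 8 and 10, and with the GC offset 0 were called. The GC-rich members Zfp771 (64.5 percent GC), Zfp428 (63.6 percent) and Zfp865 (55.4 percent) fell by 1.08, 0.83 and 0.41, and stood at -0.50, -0.31 and -0.23 with the offset. Of 208 Tmem genes 2 rose and 1 fell (1.44%), near the share over all genes tested. The rises were Tmem165 (47.1 percent GC) by 0.47 and Tmem33 (39.5 percent) by 0.32, and the fall was Tmem121 (63.4 percent) by 1.04. With the offset they stood at 0.42, 0.17 and -0.51, none of them called. Without control 1, 2, 3 or 4 or VDR-null 1 or 2 no Zfp or Tmem gene was called. All 25 genes of vesicle traffic and cytoskeletal motors, with a median GC content of 43.4 percent, had a fold change of 0 or more, with a median of 0.18, or 0.08 after subtracting the median of the GC quintile, and edgeR called 0, DESeq2 5 and limma-voom 1, with 10 at an unadjusted p under 0.05. Per1, a clock gene with 58.7 percent GC, fell by 0.59 (SE 0.12, edgeR adjusted p = 0.0412), and stood at -0.30 with the GC offset (edgeR adjusted p = 0.176). Snrpb, a core protein of the spliceosome, fell by 0.57 (SE 0.13, edgeR adjusted p = 0.0486), and stood at -0.51 with the offset (edgeR adjusted p = 0.0797).

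**Figure D5:**
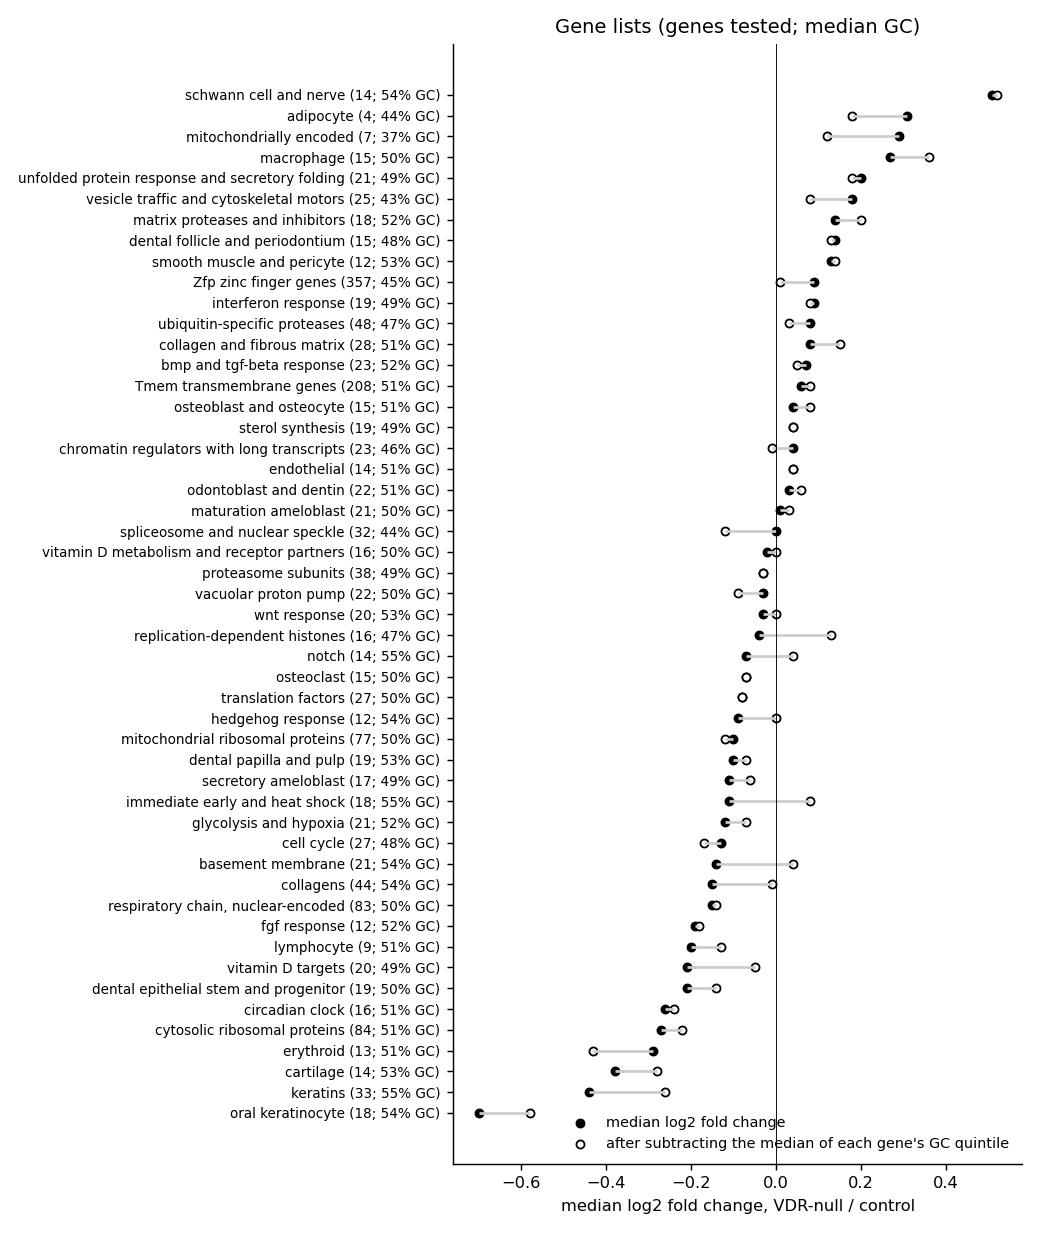
Median log2 fold change of VDR-null against control for each gene list (filled), and the same after subtracting from each gene the median of its GC quintile (open), with the number of genes tested and their median exon GC content beside each name. Skeletal muscle (3.28) and neutrophil (-1.59) medians fall outside the axis and are not drawn, and the cytosolic ribosomal proteins move from -0.27 to -0.22.

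The signalling lists held no edgeR calls, where 1.33% of all genes tested were called, so this count lies near the background. Of 27 cell cycle, 12 Hedgehog, 12 FGF, 20 Wnt, 23 BMP and TGF-beta, and 14 Notch genes 0 were called in edgeR, with medians between -0.19 and 0.07. In that order 2, 3, 5, 3, 4 and 2 genes had an unadjusted p under 0.05, DESeq2 called 0, 0, 0, 2, 0 and 1, and limma-voom called 0 in each. Axin2, a feedback inhibitor of Wnt signalling, stood at 32.8 to 40 CPM in control and 24.7 to 31.5 CPM in VDR-null without overlap, with a log2 fold change of -0.38 (SE 0.09, edgeR adjusted p = 0.0571). Lgr4, a receptor that strengthens Wnt signalling, stood at 62.6 to 71.1 CPM and 68.5 to 96.9 CPM, with a log2 fold change of 0.37 (SE 0.09, edgeR adjusted p = 0.0525). The FGF-induced Etv4 and the Hedgehog target Gli1 had values of -0.70 and -0.54, with edgeR adjusted p of 0.176 and 0.177.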

How the data were processed

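Poly-A RNA of 13 libraries was deposited as whole-number counts per gene, which the authors obtained with HTSeq 0.6.1p1 after STAR 2.5.3a and bcl2fastq 2.20.0.422, using mm10, per the submitters' processing notes. Libraries were stranded, per the labels' protocols. For annotation release and strand setting, nothing is stated (not given in the sources used here). Genes in the deposited table were matched to GENCODE M21 on GRCm38 (34618 of 34709), from which GC content and length of merged exons were computed, for 17822 of 17837 genes tested.

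Genes were tested on the deposited counts with edgeR 4.0.16 in R 4.3.3: TMM, filterByExpr with a minimum count of 10, all 13 libraries in 1 fit with 1 mean per group, the quasi-likelihood test, and Benjamini-Hochberg adjustment over all genes tested. Log2 CPM used a prior count of 2. The GC offset was a spline with 5 degrees of freedom per library. Slopes were compared by exact permutation over 252 arrangements. Copies were matches of at least 95 percent identity over at least 100 bases and 50 percent of the shorter transcript (blastn). The fit was tested on simulated data.

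The rule named Vdr; then, among called genes that averaged 1 CPM or more and whose groups did not overlap, the 10 largest rises and 10 largest falls and the 4 protein-coding genes of lowest and of highest GC content each way; then up to 3 called members of each of 52 lists, or 2 members of smallest p where none was called. The comparison, the lists and the rule were chosen with earlier results of these data known. Some members by the rule are not named here. Alternatives were DESeq2 1.42.0, limma-voom (limma 3.58.1), other scalings, filters, thresholds and GC measures, and leaving out each library. Figures were drawn with matplotlib 3.10.9.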

Additional observations from a re-analysis of the deposited data

Results flagged for a closer look

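Within single groups of 5, 8 of 138 values examined stood apart from the other 4 libraries by a gap test that flags about 1 in 20 groups by chance. In VDR-null 1, Rpl10a-ps1 stood at 20.5 CPM against 13.1 to 14.9 in the other VDR-null libraries, Rps12-ps10 at 1.13 CPM against 1.54 to 1.58, and Per1 at 22.6 CPM against 31.8 to 34.4. In VDR-null 3, Phospho1 stood at 0.404 CPM against 0.115 to 0.194, and the skeletal muscle genes summed to 845 CPM against 11.1 to 88.3. In control 1, Mpc1 stood at 3.97 CPM against 2.36 to 2.83. In control 2, the erythroid genes summed to 518 CPM against 365 to 392. In control 4, Cd63-ps stood at 6.36 CPM against 3.83 to 4.52.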

How the results depend on the processing

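Counts of called genes are given as total, higher and lower, against 238, 121 and 117. DESeq2 gave 1657, 794 and 863; the 10 libraries alone 703, 308 and 395; a mean of at least 1 CPM 423, 198 and 225; the GC offset 51, 39 and 12; the GC and length offset 62, 47 and 15; the selection stated with the series 2349, 960 and 1389; an adjusted p under 0.01 gave 6, 5 and 1. Leaving out genes with a near-identical copy, chosen after seeing the data, gave 126, 62 and 64. Among the 238 calls were 189 genes without such a copy, 94 higher and 95 lower, so the lower total does not count the copies removed. Upper-quartile factors called 448 with 301 lower, library totals 256 lower, and no low-count filter 63 higher. Leaving out 1 library gave totals of 6 to 685, with 5 to 314 higher and 1 to 401 lower. The Vdr log2 fold change was 0.556 with DESeq2 (adjusted p = 0.00966) and 0.551 with the 10 libraries alone in edgeR (adjusted p = 0.0284). Without 1 library it was 0.504 to 0.619 (edgeR adjusted p = 0.0254 to 0.142). The GC slope difference was -0.298 to -0.202 without 1 library. The weighted GC difference was -0.518 without the 20 genes with most counts and -0.718 to -0.408 without 1 library. The length slope difference was 0.0607 at a mean of at least 1 CPM (adjusted exact permutation p = 0.0635), 0.0322 over coding parts (0.175), 0.0271 beside GC content (0.111) and 0.0500 to 0.0688 without 1 library. The GC gap was 0.002 with the GC offset, by its construction, and -0.485 to -0.330 without 1 library. Of 53 named calls, 37 missed the threshold with the GC offset and 48 without control 1, 2, 3 or 4 each; none changed sign. Apart from the constructions named, the cause was not tested. No paired analysis was possible because the replicate numbers were given in accession order and pair no libraries. In control 2, the shallowest library, 3 counts equal 0.142 CPM, so lower levels cannot be told from 0 there.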
